A study of Medicago sativa with 3 samples.

Results

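Intolerant plants that had been grazed were set against tolerant plants that had not, to describe by function which alfalfa transcripts were alike and which differed between the 2 RNA bulks. The members are the assembled transcripts whose matches in the Nr protein database and the Nt nucleotide database both named a legume (Medicago, Glycine, Lotus, Pisum, Cicer or Trifolium) and that held at least 100 fragments, or pairs of reads, over both libraries together. There were 28717 members of 95646 transcripts in all. A further 23952 transcripts matched legumes in both databases and held fewer fragments.

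All plants were Medicago sativa ssp. falcata, cultivar 'Hulunbeier', propagated by dividing the crowns of plants that had recovered well (tolerant) or poorly (intolerant) after long sheep grazing. The tolerant ungrazed bulk came from a fenced block in which shoots had been cut to match the grazed block on the day the sheep were taken out, and the intolerant grazed bulk came from a grazed block, both dug 1 week later. Each bulk was an equal mixture of leaf, stem and root RNA from several plants, sequenced as 1 library per group. No intolerant ungrazed library was analysed here, so population, grazing and block differ together in every value below and cannot be told apart. A tolerant grazed library, which shares the population with the ungrazed one and the treatment with the intolerant one, was also analysed and is quoted beside single transcripts.

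Grazing removes leaf area and growing points, and a legume such as alfalfa regrows from crown buds with carbon and nitrogen drawn from the taproot and crown. Regrowth calls on photosynthetic proteins, on water channels and wall-loosening enzymes for cell expansion, and on a new cuticle. Herbivory, wounding and microbes also engage defence pathways, among them jasmonate synthesis, protease inhibitors, pathogenesis-related (PR) proteins, isoflavonoids and the WRKY transcription factors, which bind W-box elements in the promoters of defence genes.

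The 3 libraries held 22.8 M (tolerant ungrazed), 22.7 M (tolerant grazed) and 22.3 M (intolerant grazed) aligned fragments, where M stands for mega. Members made up 86.4% of intolerant grazed fragments, against 78.1% of tolerant ungrazed and 78.3% of tolerant grazed fragments. Levels are given as FPKM (fragments per kilobase of transcript per mega-fragment), and where 3 values follow each other they are tolerant ungrazed, tolerant grazed and intolerant grazed, in that order. Higher and lower mean an FPKM at least 2-fold higher or lower in the intolerant grazed library than in the tolerant ungrazed library, which is a log2 ratio of 1 or more, or of -1 or less. There was 1 library per group, so replicates could not be tested, and the exact 95% Clopper-Pearson intervals given with log2 ratios cover counting error only. Among the 2796 members with at least 1000 fragments in both libraries the interval was never wider than 0.26 log2 units. In such bulks, fewer cells of a type and less RNA per cell cannot be told apart.

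Of the 28717 members, 5253 (18.3%) were higher in intolerant grazed plants and 2382 (8.29%) lower, and the other 21082 (73.4%) lay within 2-fold. These shares are the background against which each function is read. Over all 94850 transcripts with a fragment in either library, legume-matched or not, 27.1% were higher and 30.8% lower. That set has no minimum of 100 fragments, and small counts pass 2-fold more easily. At the same minimum, 5428 transcripts lacked a legume match in both databases, and 21.4% of these were higher and 41.1% lower. The median log2 ratio of the members was 0.32, a shift toward the intolerant grazed library that stands beside the larger share of fragments that the members took there. When every log2 ratio was reduced by this median, called rescaling below, 3314 members (11.5%) were higher and 3533 (12.3%) lower, and the share of the calls that were higher went from 68.8% to 48.4%. Rescaling centres the ratios on the members' own median, so a near-even split follows largely from its construction. It cannot tell a shift of scale from a difference between the plants, and the cause of the shift was not tested. Each function is given with its counts on both scales, the higher and lower counts after rescaling in brackets.

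All 3 labelled tissues were represented in both libraries, in unequal balance. Defining leaf proteins (chlorophyll a/b-binding proteins, Rubisco small chains, plastocyanin and protochlorophyllide reductase) had 7 of 32 transcripts higher and 0 lower. Their sums were 10615 FPKM in the tolerant ungrazed, 11585 in the tolerant grazed and 25915 in the intolerant grazed library, or 9465, 9156 and 17584 FPKM without the most abundant transcript, CL215.Contig3_All. Stem and xylem proteins (secondary-wall cellulose synthases, laccases and xylem proteases) had 13 of 26 higher and 3 lower and summed to 211, 189 and 281 FPKM. Uptake and xylem-loading transporters of the root for phosphate and nitrate had 0 of 11 higher and 4 lower and summed to 527, 344 and 371 FPKM, or 176, 130.1 and 96.4 FPKM without the most abundant. Of these lists, 1 flower and seed transcript was at 0 in the tolerant ungrazed library and none was at 0 in the intolerant grazed library. These lists were narrowed after values were seen, because a wider match of words took in other proteins, such as metacaspases and plastid carriers for the root. The wider root match held 94 transcripts, of which 21 were higher and 12 lower (sums 1589, 1569 and 1672 FPKM). The narrowing also left out planned markers, namely CASP-like (Casparian strip) and ROOT HAIR DEFECTIVE proteins of the root and fasciclin-like proteins of the stem. CASP-like transcripts went both ways, for example Unigene14614_All at 20.8, 45.6 and 85.3 FPKM and CL2241.Contig1_All at 16.6, 19.1 and 4.05 FPKM. The root direction therefore depends on that choice. The wider stem and xylem match held 84 transcripts, of which 20 were higher and 6 lower (sums 1582, 1742 and 1823 FPKM). The large share of higher stem transcripts therefore also depends on that choice. The 5 flower and seed transcripts summed to 51.6, 55.1 and 86.3 FPKM, and the 1 nodule transcript stood at 5.20, 4.25 and 4.02 FPKM. The part of tissue balance in the results below was not tested.

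The 44 functions fell into those with few calls in either direction, those with more higher members and those with more lower members. Of the 44 medians, 22 lay within 0.1 of the median of all members and 6 were below 0. Putting the floor of 3 fragments in place of a library with 0 moved the median of 0 of the 44 functions. A further 13 lists were added after values were seen and are not among the 44. They are aquaporins, sucrose synthases, beta-amylases, proline-rich early nodulins, chalcone synthases, lipoxygenases and Kunitz-type inhibitors. The others are PR-1 with thaumatin-like, polygalacturonase inhibitor, lipid transfer, germin-like, gibberellin-regulated and structural wall proteins. Their one-sided shares are descriptions of families picked for their values.

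**Figure D1:**
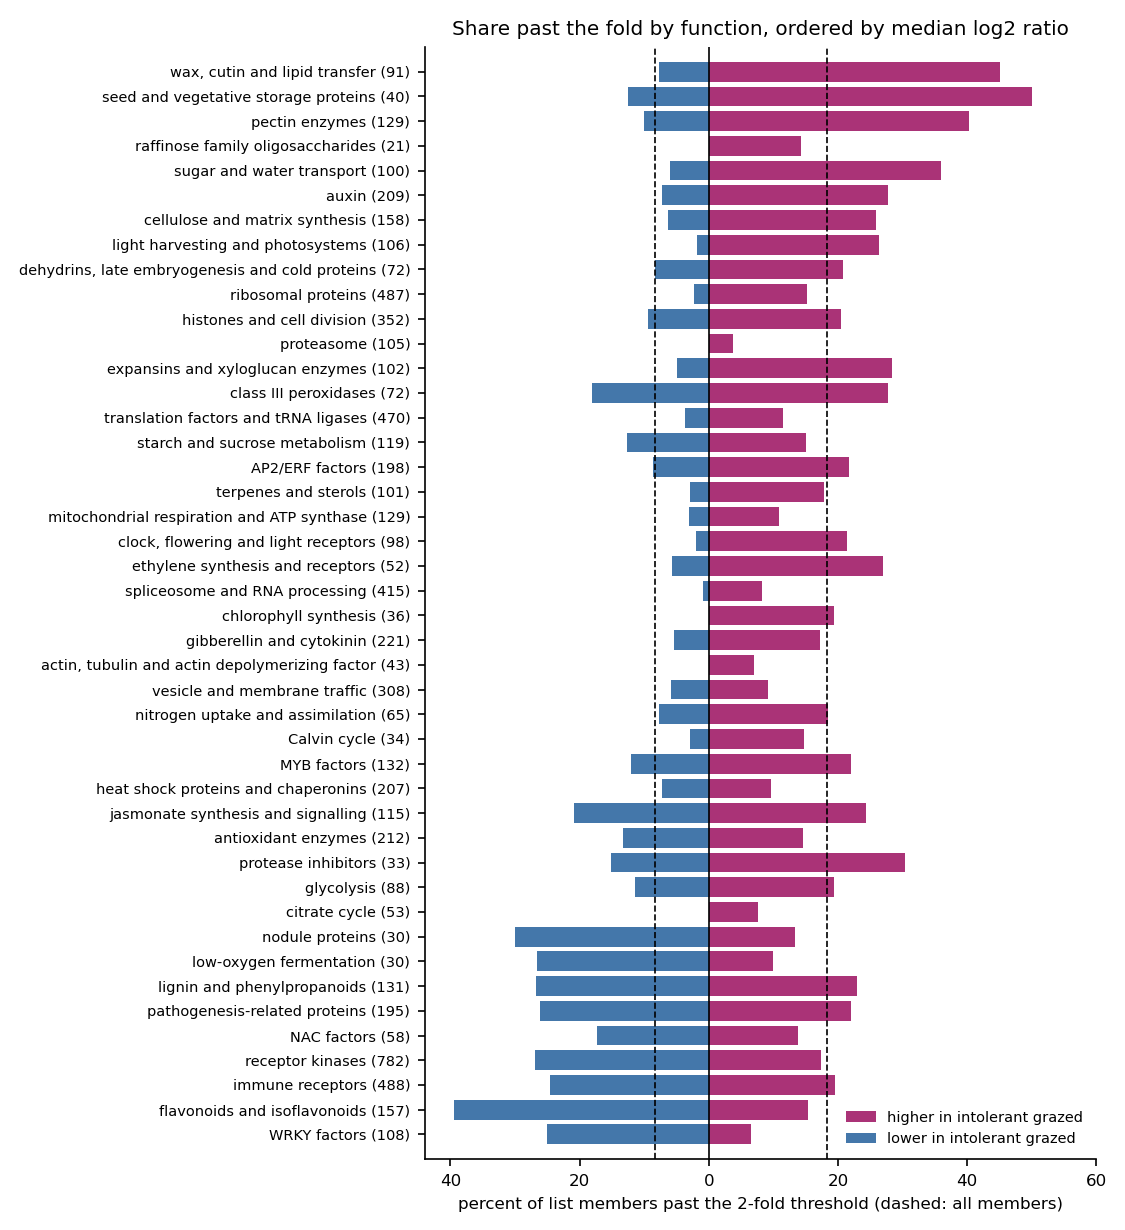
Bars give, for each of 44 functions (number of members in brackets), the percent of members at least 2-fold higher (right) or lower (left) in the intolerant grazed library, ordered by the median log2 ratio; the dashed lines are the 18.3% and 8.29% of all members. Wax, storage, pectin and transport functions extend to the right, WRKY factors, flavonoids and immune functions extend to the left, and proteasome, citrate cycle and spliceosome bars are short both ways.

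The machinery that all cells use was the most alike. Of the subunits of the proteasome, which degrades tagged proteins, 4 of 105 were higher and 0 lower (1 and 0), with a median log2 ratio of 0.38. For the spliceosome and RNA processing 34 of 415 were higher and 4 lower (14 and 11), and for the citrate cycle, which oxidises acetyl units in mitochondria, 4 of 53 were higher and 0 lower (2 and 0). Actin, tubulin and actin depolymerizing factor, the parts of the cytoskeleton, had 3 of 43 higher and 0 lower (1 higher and 0 lower). All of these shares lie under the 18.3% and 8.29% of all members.

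Values of single housekeeping transcripts follow, of which the actins and the tubulin were chosen after their values were seen. An actin (CL1144.Contig5_All) stood at 198, 186 and 198 FPKM, a log2 ratio of 0.00 (-0.04 to 0.05), and another contig of its cluster (CL1144.Contig6_All) at 189, 234 and 239 FPKM, or 0.34 (0.30 to 0.38). An alpha-tubulin (Unigene15426_All) stood at 114, 151 and 114 FPKM, or 0.01 (-0.05 to 0.07). Elongation factor 1-alpha (Unigene21201_All), which brings tRNAs to the ribosome, was at 423, 485 and 486 FPKM, or 0.20 (0.17 to 0.23), and the proteasome subunit 6B (Unigene15337_All) at 129.5, 141 and 159 FPKM. Mitochondrial malate dehydrogenase (Unigene15500_All), the most abundant citrate cycle enzyme, was at 219, 221 and 243 FPKM.

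Ribosomal proteins were a large and even group: 74 of 487 were higher and 11 lower (36 and 18), with a median of 0.38. Their summed level was 25251, 28653 and 31953 FPKM. The highest and the lowest ratio both belonged to plastid proteins. The highest was the chloroplast 50S protein L18 (CL11292.Contig2_All) at 4.16, 16.6 and 78.7 FPKM, and the lowest was the chloroplast 30S protein 3 (CL5552.Contig2_All) at 30.2, 27.9 and 3.74 FPKM. Both depend on how fragments were divided within an assembly cluster: summed over the member contigs, CL11292 had a log2 ratio of 0.84 and CL5552 one of 0.90, each within 2-fold. For translation factors and tRNA ligases 54 of 470 were higher and 17 lower (26 and 27), for mitochondrial respiration and ATP synthase 14 of 129 were higher and 4 lower (10 and 10), for vesicle traffic 28 of 308 were higher and 18 lower (14 and 28), and for heat shock proteins 20 of 207 were higher and 15 lower (9 and 20). The most abundant transcript of the respiration and ATP synthase list, annotated to the chloroplast ATP synthase subunit c (CL7380.Contig1_All), stood apart from these at 188, 367 and 670.4 FPKM.

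Light harvesting had the largest upward difference in summed FPKM of the 44 functions, a rank that rests on 1 transcript. Of the light-harvesting and photosystem transcripts 28 of 106 were higher and 2 lower (15 and 3), with a median of 0.46. Their summed level was 9672, 13084 and 20630 FPKM. A large part of this sum was a single transcript, the chlorophyll a/b-binding protein CL215.Contig3_All, a protein of the light-harvesting antenna, with 31700, 66440 and 224373 fragments, or 1150, 2428 and 8332 FPKM, 7.25-fold higher in the intolerant grazed than in the tolerant ungrazed library. Without it the sums were 8523, 10656 and 12299 FPKM, a ratio of 1.44 in place of 2.13. Ribosomal proteins without their most abundant transcript differed more, at 24717, 27883 and 31330 FPKM.

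Other photosynthetic proteins differed less than the leading antenna protein. A photosystem I subunit (CL11636.Contig1_All) was at 460.5, 507 and 551 FPKM, the oxygen-evolving enhancer protein 1 (CL3926.Contig1_All), which stabilises the water-splitting site, at 657, 680.2 and 747 FPKM, and ferredoxin-NADP reductase (Unigene6505_All), the last step of electron transport, at 344, 375 and 349 FPKM. All 3 lay within 2-fold. A second chlorophyll a/b-binding protein (Unigene10602_All) stood at 533, 774 and 1393 FPKM, 2.61-fold higher. A transcript annotated as the photosystem II protein K (Unigene26820_All), a small subunit encoded in the plastid genome, was also higher, at 87.2, 229 and 358 FPKM.

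In the Calvin cycle, which fixes CO2, 5 of 34 were higher and 1 lower (3 and 2), with sums of 9321, 8112 and 15651 FPKM. The 4 contigs of 1 cluster that encode the small chain of Rubisco lay just under the threshold, the most abundant (CL8539.Contig1_All) at 2294, 2235 and 4446 FPKM and a log2 ratio of 0.95 (0.94 to 0.97). Other enzymes of the cycle differed little: phosphoribulokinase (Unigene9905_All) stood at 203, 141 and 229 FPKM and transketolase (CL10509.Contig1_All) at 173, 161 and 202 FPKM. Rubisco activase (CL8805.Contig1_All), which frees inhibited Rubisco, was at 785, 726 and 609 FPKM, a log2 ratio of -0.37. For this contig the tolerant grazed value was close to the tolerant ungrazed one. For chlorophyll synthesis 7 of 36 were higher and 0 lower (3 and 2).

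Carbon metabolism was split between enzymes. Sucrose synthase, which cleaves sucrose for use in sink tissues, had 9 lower and 3 higher of 22 transcripts (2 higher and 13 lower), a median of -0.88, and sums of 3141, 969 and 1654 FPKM. The most abundant (CL1276.Contig1_All) held 42751, 12258 and 15747 fragments, 2.65-fold fewer per length and depth in the intolerant grazed library. Sucrose synthase 2 (CL12582.Contig1_All), by contrast, was alike in these 2 libraries and low in the tolerant grazed one, at 137, 40.6 and 142 FPKM. For all starch and sucrose enzymes 18 of 119 were higher and 15 lower (11 and 22), and for glycolysis 17 of 88 were higher and 10 lower (11 and 16). For raffinose family oligosaccharides 3 of 21 were higher and 0 lower (3 and 0).

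Beta-amylase, which degrades starch to maltose and is abundant in alfalfa taproots, had 2 contigs of 1 cluster that went opposite ways and together had a log2 ratio of -0.88. CL7445.Contig1_All was at 69.8, 92.2 and 27.1 FPKM and CL7445.Contig2_All at 0.875, 1.71 and 14.4 FPKM. Over the whole list 5 of 30 were higher and 1 lower (4 and 2).

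Fermentation enzymes, which regenerate NAD+ when oxygen is short, had a lower summed level, and the tolerant grazed library had the lowest. Of these 3 of 30 were higher and 8 lower (1 and 11), and the sums were 5518, 1083 and 3350 FPKM. Alcohol dehydrogenase, which makes ethanol, was within 2-fold in its most abundant contig (CL1106.Contig1_All), at 1504, 361 and 1108 FPKM. Pyruvate decarboxylase, the step before it, was lower in CL6015.Contig5_All at 219.9, 21.8 and 66.5 FPKM and in CL6015.Contig6_All, a contig of the same cluster, at 270.3, 7.58 and 125 FPKM. These contigs share sequence and are not independent. Non-symbiotic hemoglobin 1 (Unigene24262_All), which scavenges nitric oxide under low oxygen, stood at 152, 53.1 and 195 FPKM, so that the 2 libraries compared here resembled each other more than either resembled the tolerant grazed library.

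Nitrogen metabolism held opposite single differences. Nitrate reductase (Unigene18045_All), which reduces nitrate to nitrite, was at 93.7, 0.704 and 9.76 FPKM, 9.60-fold lower, while ferredoxin-nitrite reductase (Unigene12411_All), the next step, was at 13.8, 12.5 and 94.1 FPKM, 6.83-fold higher. Asparagine synthetase, which makes the main amide that legumes transport, was at 213, 342 and 326 FPKM in its most abundant transcript (CL5580.Contig1_All) and at 32.6, 117 and 161 FPKM in a shorter one (Unigene4353_All). L-asparaginase (Unigene6949_All), which releases that nitrogen, was 3.28-fold higher at 46.7, 39.7 and 153 FPKM. Over the list 12 of 65 were higher and 5 lower (8 and 7), shares close to the background.

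Storage proteins were higher more often than any other of the 44 functions: 20 of 40 were higher and 5 lower (19 and 6). Narbonin (Unigene22856_All), a storage protein of the chitinase fold known from vetch seeds, had 4, 24 and 5270 fragments, or 0.141, 0.852 and 190.0 FPKM, 1349-fold higher with a counting interval of 527 to 4953. Albumin-1, a small sulphur-rich peptide known from pea seeds, was higher in contigs of 2 clusters, for example CL2.Contig1_All at 7.82, 48.7 and 78.7 FPKM and CL7446.Contig2_All at 5.54, 2.26 and 84.2 FPKM. A transcript matched to a bark storage protein (Unigene7011_All) stood at 8.29, 14.5 and 82.2 FPKM. The most abundant member, a patatin-like protein (CL548.Contig1_All), was not among the higher ones, at 106, 50.6 and 90.7 FPKM, and Albumin-2 (Unigene3829_All) was lower, at 15.7, 11.0 and 0.744 FPKM.

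Water channels held far more higher than lower members. Of the aquaporins, which carry water across the plasma membrane (PIP) and the vacuolar membrane (TIP), 19 of 37 were higher and 1 lower (15 and 1), with a median of 1.09. The vacuolar aquaporin Unigene7030_All was the most abundant, at 561, 921 and 1058 FPKM, just within 2-fold. Aquaporin PIP2-1 (Unigene16135_All) was at 19.2, 30.6 and 152 FPKM, 7.89-fold higher, and TIP2-1 (CL13280.Contig1_All) at 11.7, 62.7 and 73.4 FPKM, where the tolerant grazed library was as high. The 1 lower aquaporin was NIP3-1 (CL354.Contig5_All), of the nodulin-26-like group, at 9.62, 13.6 and 2.24 FPKM, and the 8 member contigs of its cluster together had a log2 ratio of -0.23. With sugar transporters included, 36 of 100 were higher and 6 lower (21 and 10), among them a SWEET-type sugar exporter (Unigene39866_All) at 2.82, 7.43 and 28.0 FPKM.

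**Figure D2:**
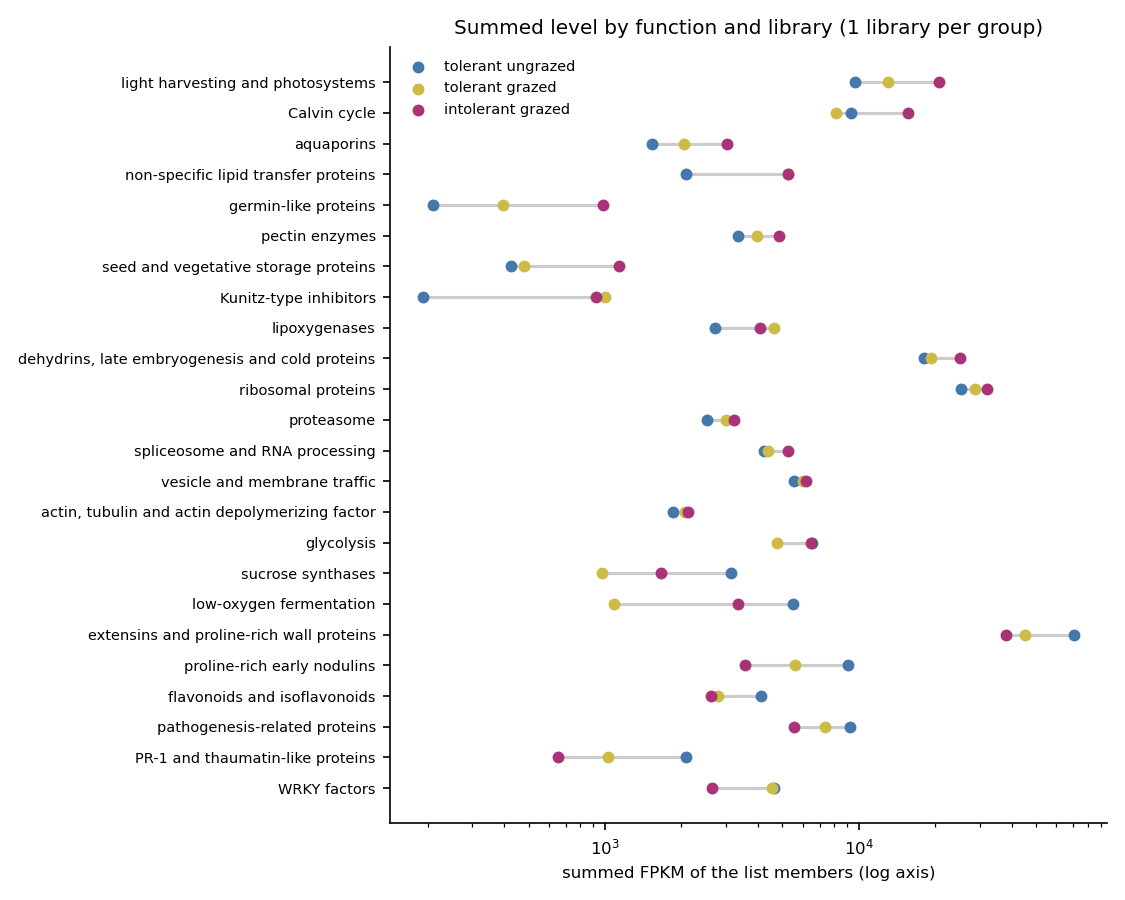
Points give the summed FPKM (log axis) of the members of 24 functions in each library, 1 library per group, joined by a grey line. Photosynthesis, aquaporins, lipid transfer proteins, germin-like proteins and Kunitz inhibitors are higher in the intolerant grazed than in the tolerant ungrazed library, sucrose synthases, fermentation, wall proteins, early nodulins and PR-1 with thaumatin-like proteins are lower, and the points of the housekeeping functions lie close together.

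Cuticle and surface proteins summed to 3312, 6568 and 6726 FPKM, a higher level in both grazed libraries. Of wax, cutin and lipid transfer transcripts 41 of 91 were higher and 7 lower (33 and 9). Non-specific lipid transfer proteins, small secreted carriers of lipids to the cuticle, had 24 of 37 higher and 4 lower (22 higher and 4 lower), with sums of 2089, 5245 and 5249 FPKM. The most abundant (CL1815.Contig4_All) stood at 197, 2347 and 1568 FPKM, and a second contig of its cluster (CL1815.Contig5_All) at 69.1, 244 and 921 FPKM. Without CL1815.Contig4_All the lipid transfer sums were 1892, 2898 and 3681 FPKM, and those of the whole wax, cutin and lipid transfer list 3115, 4221 and 5158 FPKM. Among the 4 lower ones, Unigene4692_All was at 582, 242 and 89.3 FPKM. WAX2, an enzyme of alkane wax synthesis, had a contig (CL6728.Contig3_All) with 808, 704 and 0 fragments, at least 263-fold lower against a floor of 3 fragments per library. Germin-like proteins, which are secreted cupins, had 13 of 18 higher and 2 lower (11 higher and 2 lower). The leading one (Unigene7523_All) was at 36.6, 53.8 and 498 FPKM, 13.6-fold higher.

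Enzymes that modify the wall and the proteins that build it differed in direction. Of the pectin enzymes 52 of 129 were higher and 13 lower (42 and 18). The most abundant transcript of this list, a 21 kDa protein assigned by KEGG to pectinesterase (CL11755.Contig1_All), was at 493, 613 and 1361 FPKM, 2.76-fold higher, and a polygalacturonase (CL179.Contig3_All), which cuts pectin, was at 0.741, 0.572 and 12.5 FPKM. Pectinesterase 3 (CL8639.Contig2_All) was lower, at 142, 123 and 48.6 FPKM. Of the expansins and xyloglucan enzymes, which loosen the wall, 29 of 102 were higher and 5 lower (24 and 10), although the most abundant (Unigene17688_All) was alike at 494, 501 and 425 FPKM. For cellulose and matrix synthesis 41 of 158 were higher and 10 lower (26 and 20).

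The 5 members with the highest mean FPKM of all were structural wall proteins, and the summed level of these proteins was lower. Extensins and repetitive proline-rich proteins, which are cross-linked into the wall, summed to 70703, 45227 and 37978 FPKM over 244 transcripts. By count 42 of 244 (17.2%) were higher and 33 (13.5%) lower (32 and 46), so more were lower than higher only after rescaling. Without the most abundant transcript the sums were 54906, 37515 and 28921 FPKM, a ratio of 0.527 in place of 0.537. The highest mean FPKM of all members belonged to a repetitive proline-rich protein (Unigene12296_All) at 15798, 7712 and 9057 FPKM, within 2-fold at a log2 ratio of -0.80 (-0.81 to -0.79). A second one (CL9910.Contig3_All) was at 11939, 5982 and 5748 FPKM, an extensin (CL12758.Contig2_All) at 4984, 4871 and 2037 FPKM and a root nodule extensin (Unigene423_All) at 2429, 959 and 508 FPKM, 4.78-fold lower. A transcript matched to Extensin-3 (Unigene24830_All) was not lower, at 827, 2501 and 1533 FPKM.

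Early nodulins of the proline-rich ENOD12 type, wall proteins first described in infected legume roots, held more lower than higher members. Of these 2 of 14 were higher and 8 lower (1 and 8), and the sums were 9046, 5591 and 3548 FPKM. This narrow list, with a median of -1.25, was added after values were seen. In the wider planned list of nodule proteins 4 of 30 were higher and 9 lower (2 and 10), with a median of 0.17. The sums of that wider list were 10041, 5786 and 4194 FPKM. The negative median therefore holds for the ENOD12 type and not for nodule proteins in general. An ENOD12A-like transcript (CL8491.Contig6_All) was at 2245, 969 and 143 FPKM, 15.7-fold lower, and ENOD12B (CL1831.Contig11_All) at 585, 323 and 26.9 FPKM, 21.8-fold lower, although the 7 member contigs of its cluster together had a log2 ratio of -0.35, within 2-fold. The most abundant (Unigene22228_All) was alike in all 3 libraries, at 2012, 2293 and 1990 FPKM, and CL8491.Contig4_All was higher, at 123, 192 and 248 FPKM, although the 7 member contigs of its cluster together were lower. The marker list for root nodules held only the 1 transcript described above.

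Among the 44 functions, flavonoid enzymes had the largest share of lower members, a ranking that leaves out smaller families such as the early nodulins and sucrose synthases: 24 of 157 were higher and 62 lower (19 and 69), with a median of -0.28 and sums of 4130, 2785 and 2605 FPKM. Chalcone synthase, the entry enzyme, was at 166, 166 and 68.3 FPKM in its most abundant contig (CL12793.Contig2_All) and at 123, 30.2 and 27.9 FPKM in another of the cluster (CL12793.Contig5_All), 4.43-fold lower. Chalcone isomerase (Unigene3859_All), the next step, was within 2-fold at 107, 73.2 and 66.5 FPKM. Licodione synthase (Unigene6358_All), which oxidises a flavanone, was at 38.3, 1.93 and 0.923 FPKM. Isoflavone-7-O-methyltransferase (Unigene30007_All), an enzyme of alfalfa isoflavonoid synthesis, had 1134, 1087 and 3 fragments, 369-fold lower with a counting interval of 126 to 1793. Leucoanthocyanidin dioxygenase (Unigene16197_All), of the anthocyanin branch, went the other way at 0.304, 9.44 and 10.4 FPKM, high in both grazed libraries.

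The phenylpropanoid and lignin list held members in both directions, as 30 of 131 were higher and 35 lower (25 and 41). A caffeoyl-CoA O-methyltransferase (CL8586.Contig1_All), which methylates lignin precursors, was at 53.1, 5.59 and 1.34 FPKM, although the 2 contigs of its cluster together had a log2 ratio of -0.19. The most abundant member of the list, of the same enzyme (Unigene1854_All), was at 404, 368 and 488 FPKM. Terpene and sterol enzymes had 18 of 101 higher and 3 lower (11 higher and 5 lower). Beta-amyrin 24-hydroxylase (Unigene18788_All), a P450 of triterpene saponin synthesis, was 5.89-fold higher and as high in the tolerant grazed library, at 22.5, 127 and 133 FPKM. Squalene monooxygenase (CL6151.Contig2_All), upstream of sterols and saponins alike, was at 173, 189.7 and 86.3 FPKM (log2 ratio of -0.91 over its cluster, within 2-fold), and sterol 14-demethylase (CL647.Contig2_All), on the sterol branch alone, at 114, 31.7 and 47.8 FPKM.

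**Figure D3:**
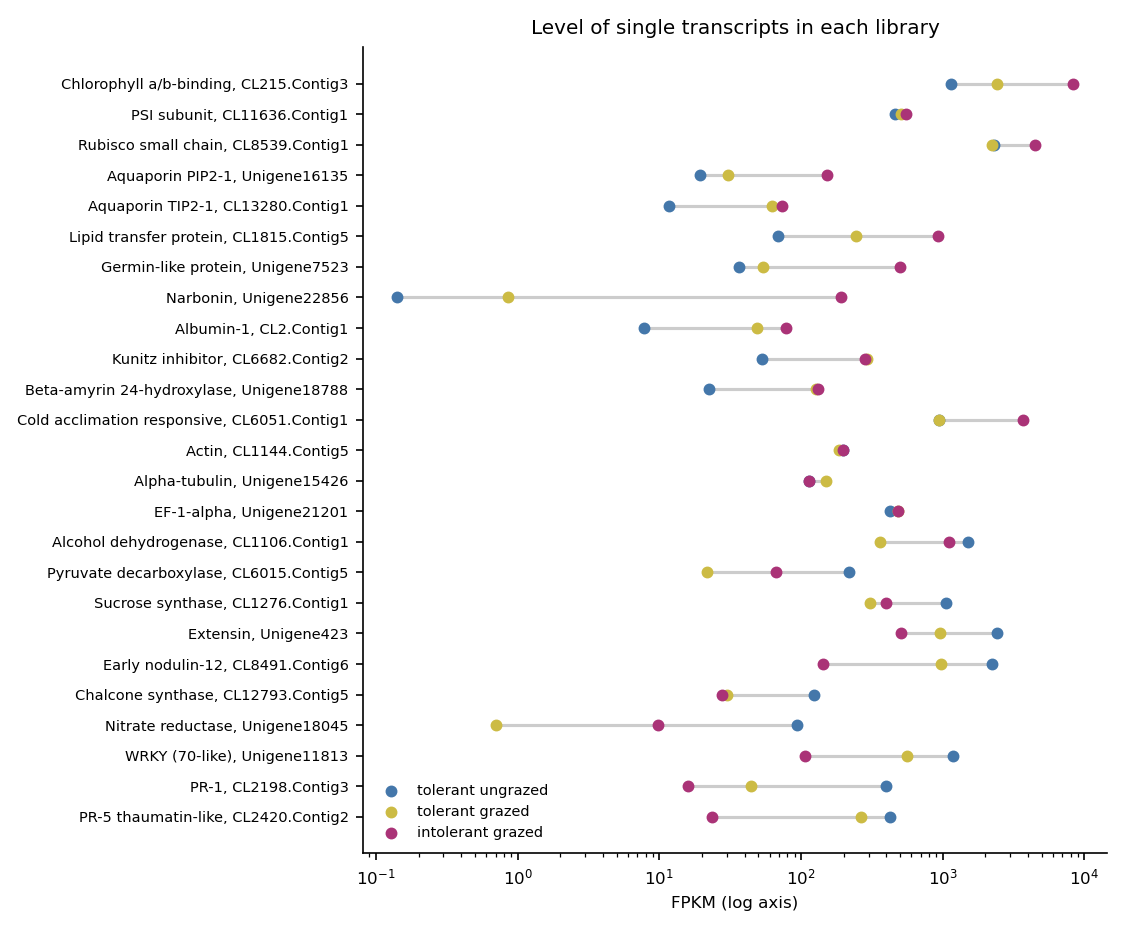
FPKM (log axis) of 25 transcripts in each library, 1 point per library, joined by a grey line. Narbonin spans the widest range, from 0.141 to 190.0 FPKM, actin, alpha-tubulin and elongation factor 1-alpha barely spread, and the PR-1, thaumatin-like, WRKY and early nodulin-12 transcripts run from high in the tolerant ungrazed to low in the intolerant grazed library.

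WRKY factors had the lowest median of the 44 functions, -0.31, with 27 of 108 lower and 7 higher (2 higher and 35 lower). Their summed level was 4639, 4566 and 2650 FPKM. A factor matched to WRKY70 of Arabidopsis (Unigene11813_All), which there links salicylate and jasmonate signalling, had 42394, 20058 and 3734 fragments, or 1176, 560.5 and 106 FPKM, 11.1-fold lower. Without it the sums were 3464, 4005 and 2544 FPKM, a ratio of 0.735 in place of 0.571. The lowest ratio of the list belonged to a WRKY60-like transcript (Unigene3755_All) at 90.0, 66.5 and 5.80 FPKM. Some other WRKY factors were alike, such as CL12239.Contig1_All at 176, 206 and 161 FPKM and Unigene18669_All at 72.6, 68.0 and 74.3 FPKM.

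The other transcription factor families differed from each other. Of NAC factors 8 of 58 were higher and 10 lower (4 and 17), with a median of -0.14, so they leaned lower as the WRKY factors did. MYB and AP2/ERF factors were more even, with medians of 0.23 and 0.33. Of MYB factors 29 of 132 were higher and 16 lower (17 and 22), and of AP2/ERF factors 43 of 198 were higher and 17 lower (31 and 26). An ERF matched to a regulator of PR genes (Unigene984_All) was at 265, 96.5 and 23.7 FPKM, 11.2-fold lower, and a NAC090-like factor (Unigene15411_All) at 30.7, 26.5 and 3.83 FPKM. The most abundant ERF (Unigene12890_All) was at 303, 116 and 146 FPKM, a log2 ratio of -1.06 (-1.11 to -1.01). A MYB39-like transcript (Unigene38804_All) was higher and near absent from both tolerant libraries, with 11, 13 and 508 fragments.

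Among PR proteins, PR-1 and PR-5, which are known to respond to salicylate, held more lower than higher members. Of PR-1 and thaumatin-like (PR-5) transcripts 9 of 27 were lower and 4 higher (3 higher and 12 lower), with sums of 2075, 1030 and 652 FPKM. A PR-1 transcript (CL2198.Contig3_All) had 7032, 775 and 274 fragments, or 401, 44.5 and 15.98 FPKM, 25.1-fold lower, and a PR-5a transcript (CL2420.Contig2_All) was 17.9-fold lower at 422, 263 and 23.6 FPKM. A PR-4 protein (CL9212.Contig5_All), which binds chitin, was at 272, 56.0 and 51.0 FPKM, and an acidic glucanase (Unigene21310_All), which cuts fungal walls, at 343, 87.9 and 140.4 FPKM. Over the whole PR list 43 of 195 were higher and 51 lower (30 and 64). The highest ratio of the list belonged to a transcript matched to the disease resistance response protein 206 of pea (CL586.Contig2_All), which was high in both grazed libraries at 0.431, 92.7 and 43.8 FPKM. A defensin (Unigene7621_All), a small antimicrobial peptide, lay within 2-fold at 242, 217 and 437 FPKM. The most abundant member, an endochitinase (CL7264.Contig2_All), was within 2-fold at 534, 983 and 357 FPKM.

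Kunitz-type inhibitors differed in the other direction from PR-1. Of the Kunitz-type inhibitors, which block the digestive proteases of herbivores, 8 of 9 were higher and 1 lower (8 and 1). A Kunitz inhibitor (CL6682.Contig2_All) was at 53.1, 293 and 282 FPKM and another (Unigene16116_All) at 4.18, 91.6 and 79.0 FPKM, 18.9-fold higher, and both were at least as high in the tolerant grazed library. The Kunitz-type list was added after values were seen. Over all protease inhibitors, the planned list, 10 of 33 were higher and 5 lower (10 and 8), with a median of 0.20. Bowman-Birk inhibitors, of another fold, were mixed: CL10060.Contig4_All was at 681, 907 and 1196 FPKM and CL10060.Contig3_All, of the same cluster, at 1044, 1469 and 564 FPKM.

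The jasmonate list was divided by enzyme. Over the list 28 of 115 were higher and 24 lower (21 and 30). Lipoxygenases had 15 of 36 higher and 6 lower (10 higher and 7 lower). The 9S-lipoxygenases, which feed other oxylipins, included CL2750.Contig2_All at 70.2, 127 and 166 FPKM and Unigene23005_All at 326, 646 and 633 FPKM, just under the threshold. A 13S-lipoxygenase (Unigene21703_All), of the type that starts jasmonate synthesis in plastids, was lower at 209.7, 161 and 54.9 FPKM, 3.82-fold. The repressor-type TIFY 5B transcript (Unigene20918_All) was also lower, at 14.2, 17.1 and 1.52 FPKM.

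Receptors of the immune system were divided, with more lower than higher. Of the NBS-LRR and related immune receptors 95 of 488 were higher and 120 lower (72 and 162), and the summed level was nearly the same in the 2 libraries, at 4308, 6188 and 4277 FPKM. Of receptor kinases 136 of 782 were higher and 211 lower (92 and 273). A TIR-NBS-LRR transcript (CL299.Contig4_All) had 1218, 2094 and 1 fragments, 1189-fold lower with a counting interval of 213 to 47025, while its cluster together was at -1.78 on the log2 scale. An MsR1-like resistance transcript (CL4269.Contig1_All) had 0, 71 and 174 fragments, at least 59.4-fold higher, but the contigs of its cluster together were lower. A somatic embryogenesis receptor-like kinase (CL444.Contig1_All) was near absent from both tolerant libraries, with 0, 2 and 278 fragments, while its cluster together held 262, 282 and 862. Polygalacturonase inhibitors, leucine-rich repeat proteins of the wall that block fungal pectin enzymes, had 8 of 21 higher and 4 lower (7 higher and 6 lower), and the most abundant (CL13294.Contig2_All) stood at 1814, 172 and 929.7 FPKM.

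Oxidative enzymes gave no single direction. For class III peroxidases, which act on the wall, 20 of 72 were higher and 13 lower (16 and 15), from a cationic peroxidase (CL5668.Contig2_All) at 9.77, 26.7 and 75.4 FPKM to a peroxidase 5-like transcript (Unigene22933_All) at 16.8, 13.6 and 1.94 FPKM. For antioxidant enzymes 31 of 212 were higher and 28 lower (13 and 40). The most abundant of these, a glutathione peroxidase (CL9432.Contig2_All), was at 661, 451 and 349 FPKM.

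Cold and dehydration proteins were abundant and mostly alike, with a few much higher. Of this list 15 of 72 were higher and 6 lower (12 and 11), with sums of 18044, 19198 and 24981 FPKM. The harvest-induced protein (Unigene49_All), matched to the pea ABR17 protein, was at 1918, 2398 and 3125 FPKM. A cold acclimation responsive transcript (CL6051.Contig1_All) was equal in both tolerant libraries and 3.97-fold higher, at 936, 945 and 3716 FPKM, and a second (CL7746.Contig2_All) was 10.8-fold higher, at 78.4, 265 and 849.5 FPKM. A cold acclimation protein of the COR413 type (CL8568.Contig1_All), a membrane protein, was lower, at 42.0, 33.7 and 2.72 FPKM, but at -0.53 on the log2 scale over its cluster.

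The auxin list held more higher than lower members on both scales. Of auxin transcripts 58 of 209 were higher and 15 lower (38 and 22), and of gibberellin and cytokinin transcripts 38 of 221 were higher and 12 lower (27 and 24). A gibberellin-regulated peptide (CL5960.Contig1_All) was 5.998-fold higher and highest in the tolerant grazed library, at 32.2, 299 and 193 FPKM. The GRAS factor Scarecrow-like 3 (CL1568.Contig3_All), which promotes gibberellin responses in Arabidopsis, was lower in both grazed libraries, at 27.6, 4.35 and 2.57 FPKM. For ethylene synthesis and receptors 14 of 52 were higher and 3 lower (8 and 10), so the direction was not kept. ACC oxidase (CL11.Contig3_All), which forms ethylene, was at 53.0, 86.9 and 126 FPKM (log2 ratio of 0.99 over its cluster, within 2-fold), and an ACC synthase (CL12525.Contig1_All), the step before, at 21.3, 13.2 and 4.80 FPKM.

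For the clock, flowering and light receptors 21 of 98 were higher and 2 lower (12 and 3). Phytochrome A (Unigene17798_All), a far-red light receptor, was at 18.1, 25.1 and 39.1 FPKM. A CONSTANS-like 3 transcript (Unigene6726_All) was the most abundant of this list and lower, at 229.9, 26.2 and 67.1 FPKM. For histones and cell division 72 of 352 were higher and 33 lower (46 and 46), shares near those of all members. Histone H3.3 (Unigene3584_All), the replacement histone, was at 920.4, 279.7 and 369.9 FPKM, lower in both grazed libraries, while histone H4 (CL1043.Contig2_All), which is made for DNA replication, was at 107, 54.4 and 165 FPKM.

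Among transcripts with a mean of at least 10 FPKM and a named function, the 10 highest ratios included 9 with 0 fragments in the tolerant ungrazed library. Their order rests on the 0.01 FPKM that stood in for 0 and is no order of size. Narbonin, with fragments in both libraries, has a larger fold, before its counting interval, than each of the lower bounds given here. An extensin-like transcript (Unigene22995_All) had 0, 100 and 1924 fragments, at least 657-fold higher, and the splicing factor prp45 (Unigene34346_All) 0, 1 and 2977 fragments, at least 1016-fold. Others were a transducin beta-like protein (CL1544.Contig1_All, at least 252-fold), a fumarylacetoacetase (CL8039.Contig2_All, at least 124-fold, but 0.11 on the log2 scale over its whole cluster), a rhodanese-like protein (CL2274.Contig1_All, at least 54.6-fold, but 1.31 over its cluster) and an rRNA methyltransferase (Unigene41237_All, at least 217-fold). Sentrin-specific proteases, which release the SUMO modifier, appeared in 2 clusters, CL7894.Contig2_All with 0, 0 and 567 fragments and CL12903.Contig2_All with 1, 9 and 2009 fragments. The list ended with the MsR1-like transcript above and a resistance-like transcript (CL12129.Contig9_All) with 0, 25 and 281 fragments, whose cluster as a whole was lower.

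The 10 lowest ratios included 2 retroelement polyproteins and 2 TIR-NBS-LRR proteins. A ubiquitin-fold modifier-conjugating enzyme (Unigene44340_All) had 1459, 1330 and 0 fragments, at least 475-fold lower, and a pyrroline-5-carboxylate reductase (Unigene30034_All), an enzyme of proline synthesis, 101, 99 and 0 fragments, at least 32.9-fold. The second TIR-NBS-LRR transcript (Unigene5911_All) had 280, 388 and 0 fragments. An RNA-binding protein (CL10473.Contig2_All) had 935, 1079 and 1 fragments, a FAR1-related protein (Unigene22853_All) 250, 812 and 3, and a repetitive proline-rich protein (Unigene29302_All) 462, 183 and 3. The polyproteins had 1183, 283 and 3 (CL11999.Contig3_All) and 750, 502 and 6 fragments (Unigene5495_All). With the isoflavone methyltransferase and the TIR-NBS-LRR transcript described above, all 10 held at least 99 fragments in each tolerant library and at most 6 in the intolerant one.

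Transcripts present in 1 library and near absent from the other were followed into the tolerant grazed library. There were 67 members with at least 100 fragments in the tolerant ungrazed library and at most 3 in the intolerant grazed library, and 66 of the 67 were above 3 fragments in the tolerant grazed library too, 39 of them at 100 or more. In the reverse direction there were 172 members, in 141 clusters, and 87 of these were also at 3 or fewer fragments in the tolerant grazed library, 85 were above it and 23 held 100 or more. The immune receptor list, 1.70% of all members, held 5 of the 67 (7.46%) and 10 of the 172 (5.81%). The receptor kinase list, 2.72% of all members, held 4 (5.97%) and 2 (1.16%). Both lists match words of the annotation and miss some proteins of these kinds, so these are counts of list members only. A count of 0 allows up to 3 fragments by counting error. Contigs of 1 cluster share sequence, so how fragments were divided among them is uncertain.

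**Figure D4:**
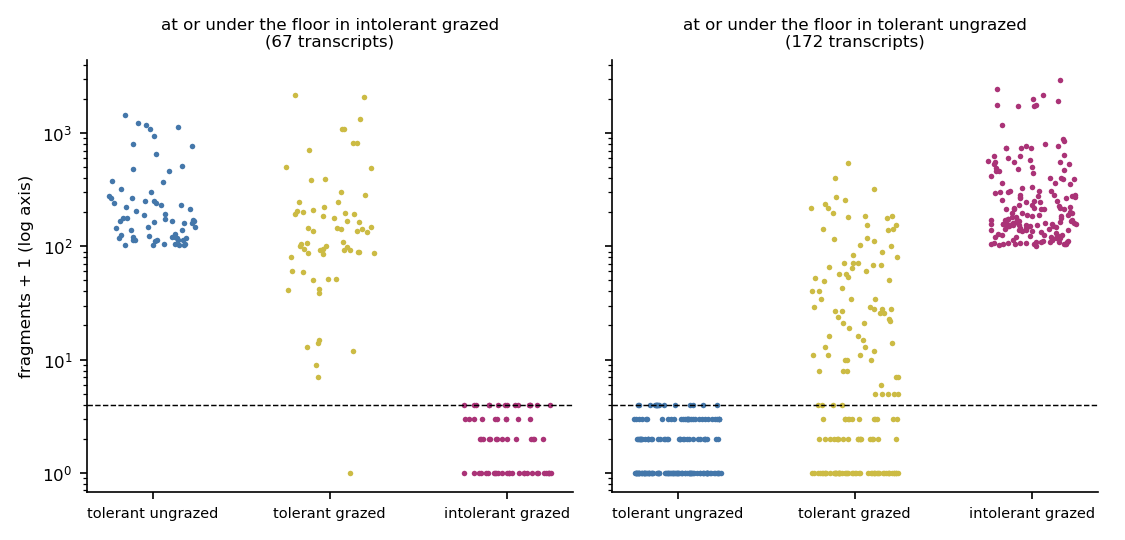
Fragments plus 1 (log axis) in each library for the 67 members near absent from the intolerant grazed library (left) and the 172 near absent from the tolerant ungrazed library (right); each point is a transcript and the dashed line is the floor of 3 fragments. On the left nearly all points lie above the floor in the tolerant grazed library, and on the right about as many lie at or below it as above.

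Position of the tolerant grazed library among the members past 2-fold was as follows. Of the 5253 higher members, 3951 had a tolerant grazed FPKM between those of the other libraries, 962 had one at or under the tolerant ungrazed value and 340 one at or above the intolerant grazed value. Of the 2382 lower members the same counts were 1412 between, 697 at or above the tolerant ungrazed value and 273 at or under the intolerant grazed value. These positions share a library with the ratio that chose the members and are given as a description.

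Contigs of 1 assembly cluster sometimes went apart. The 28717 members belonged to 19829 clusters or single transcripts, and in 140 clusters at least 1 member was higher and at least 1 lower. These held 425 of the calls (5.57%), and in 112 of the 140 the fragments summed over the member contigs were within 2-fold. Among transcripts described above, summing moved the log2 ratio to -3.12 for the PR-1 cluster, -1.96 for the PR-5a cluster, -2.22 for the ENOD12A-like cluster, 2.54 for the lipid transfer protein cluster, -1.54 for the chalcone synthase cluster, -1.78 for the Scarecrow-like 3 cluster, 3.59 for the resistance response protein 206 cluster, 1.87 for the cationic peroxidase cluster and 2.77 for the second cold acclimation cluster, all still past 2-fold in the same direction. Among the 20 extreme ratios it was 6.01 for the transducin-like, -5.56 for the RNA-binding and -2.85 for the polyprotein cluster. Near the threshold of 100 fragments, 511 members with 100 to 104 fragments had 147 higher and 69 lower, and 568 legume-matched transcripts just outside, with 95 to 99 fragments, had 180 higher and 76 lower. Of all members, 3925 reached 100 fragments in the intolerant grazed library only and 1806 in the tolerant ungrazed library only.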

How the data were processed

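RNA from equal parts of leaf, stem and root was sequenced as poly(A) paired-end Illumina libraries, 1 per group. Per the study's methods, reads were assembled de novo with Trinity and clustered with TGICL, unique alignments were counted with SOAP, and transcripts were annotated by blastx and Blast2GO; the versions are not given in the sources used here. The authors deposited, for each transcript and library, raw fragment counts and FPKM values, which are those counts per kilobase and per mega-fragment aligned. FPKM recomputed from the deposited counts differed by at most 4.99996e-05.

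Here the log2 ratio of FPKM, with 0.01 in place of 0, was computed for every member with Python 3.11.15, pandas 2.3.3 and numpy 2.4.6, and exact 95% intervals of fragment ratios with scipy 1.17.1; intervals were checked on simulated counts. Assembled transcripts were assigned to functions by words in their annotation. Members and lists were chosen with earlier results of these data known, the words were trimmed after the matches had been read, 13 of the lists were added after values were seen, and so were many of the transcripts named. The others are the 10 highest and 10 lowest ratios at a mean of 10 FPKM or more with a named function, the 10 most abundant members, and in each list the most abundant member and the extremes at a mean of 5 FPKM or more. Contigs of 1 assembly cluster can share sequence, and only unique alignments were counted, so their separate values are uncertain. With 1 library per group no p-value across genes is given. No sequence is shown, since the transcript sequences were not used here. Alternatives covered scaling, added constants, fold, fragment minimum, a Poisson test, cluster sums and the Nr match alone.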

Additional observations from a re-analysis of the deposited data

How the results depend on the processing

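Rescaling by the median ratio gave 3314 higher members in place of 5253, and 48.4% of the calls were then higher in place of 68.8%, with 3533 lower. A 4-fold threshold left 1432 higher and 847 lower (62.8% higher), and the construction of that setting accounts for the smaller counts. With a minimum of 20 fragments 11491 were higher and 4871 lower (70.2%), with 400 fragments 2008 and 1050 (65.7%), and with no minimum beyond 1 fragment 14657 and 6808; the counts cover other numbers of transcripts. Adding 1 to every FPKM gave 67.0% of calls higher. Summing fragments over the contigs of a cluster gave 1505 lower, from fewer features tested, and 70.8% of calls higher. The cause of the shifts in the share of higher calls was not tested. The log2 ratio changed sign when fragments were summed over the cluster for 5 of 252 named transcripts, and 148 of them were then past 2-fold in place of 172. The 5 went to -1.13 for CL12129.Contig9_All, -0.61 for CL4269.Contig1_All, 0.90 for CL5552.Contig2_All, -0.88 for CL7445.Contig2_All and -2.22 for CL8491.Contig4_All; the cause was not tested. TPM (5368 higher, 2343 lower), 0.1 added to every FPKM (5122 and 2343), a Poisson test at an FDR of 0.001 (5235 and 2377) and the legume match in Nr alone (5374 and 2505) stayed within 1.5 times both counts. Of 44 list medians, 19 changed sign on rescaling, 3 with the minimum of 20, 4 with 400, 1 with cluster sums and 1 with matches in the Nr description alone. Limiting tissue markers to defining proteins, an alternative chosen after seeing the data, moved the ratio of the root sums from 1.05 to 0.704 and of the stem sums from 1.15 to 1.33, and left that of the leaf sums at 2.44 (2.42). No paired analysis was possible because each group had 1 library. For the same reason no library could be left out.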
